A study of Drosophila melanogaster with 4 samples.

Results

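The 145 genes described here are the cuticle, Tweedle and Osiris genes of Drosophila melanogaster, out of 24254 annotated genes. They were chosen by symbol in the Ensembl BDGP6 annotation, as names that start with Cpr and a number, Lcp, Ccp84A, Twdl, or Osi and a number. The 5 families hold 70 Cpr genes, 17 Lcp genes, 7 Ccp84A genes, 26 Twdl genes and 25 Osi genes, and 3 of the 145 are annotated as pseudogenes (Lcp1Psi, Lcp65APsi and TwdlU). Start sites of their RNAs were read in adult testes by CAGE, which captures capped 5' ends so that each tag marks where a transcript begins and on which strand. The study compared testes with reduced Kmg (Kumgang), a zinc finger protein of spermatocytes and a partner of the nucleosome remodeler Mi-2, with control testes, to ask whether cryptic promoters are kept silent as germ cells mature. The knockdown males carried bamGAL4 together with KmgRNAi. The control males carried bamGAL4 alone, so both groups had the driver, which acts in late spermatogonia and early spermatocytes and not in the somatic cells of the testis. Crosses stood at 25 °C for 3 days, and their progeny then developed at 29 °C. Males were 0 to 2 days old, 150 pairs of whole testes gave the RNA of a library, and 10 µg of RNA went into each. There were 2 libraries in each group, and each group was deposited as 1 pooled value per start cluster, so the differences have no replicate check and no p-value was computed.

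Insect cuticle is a layered matrix of chitin fibres and proteins that epidermis, trachea, foregut, hindgut and the ectodermal ducts of the genital tract secrete at their apical surface. Most Cpr, Lcp and Ccp84A proteins carry the Rebers and Riddiford consensus, a chitin-binding domain, and different genes serve larval, pupal and adult cuticle. Tweedle proteins form a separate family of cuticle proteins, and dominant mutations in some of them make larvae and pupae short and wide. Osiris genes encode insect-specific membrane proteins of cuticle-secreting cells, and most of them lie in a single array inside the dosage-sensitive Triplo-lethal region.

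The pooled knockdown libraries held 34975246 tags in 57330 clusters, and the pooled control libraries held 56519714 tags in 32731 clusters. Read length was 150 bp in the knockdown and 76 bp in the control, so read length and genotype cannot be told apart. A level in TPM is the number of tags of a gene's sense clusters per 1000000 tags of its group. CAGE counts 5' ends, so levels were not divided by gene length. A gene was called higher or lower where log2((knockdown + 1) / (control + 1)) on TPM was at least 2 or at most -2, a 4-fold rule, among genes with at least 1 TPM in either group. The median of this log2 difference over the 13063 genes that passed the filter was 0.68, and it was -0.02 after rescaling on clusters called in both groups. The target gene kmg had 12.7 TPM in the knockdown and 48.5 TPM in the control, a ratio 3.83-fold lower (95% interval 3.46 to 4.24) that stayed just within the 4-fold rule. All 12 germline markers of testis, such as vas, aly and Mst87F, had tags in both groups, with 8244 TPM in the knockdown and 8639 TPM in the control in sum. Of the 12, bam was higher, with 18.9 TPM in the knockdown and 3.79 TPM in the control, and 2 were lower. These were dj, with 569 TPM in the knockdown and 2978 TPM in the control, and sunz, with 11.8 TPM in the knockdown and 141 TPM in the control. The largest part of the sum was Mst84Da, with 4700 TPM in the knockdown and 2227 TPM in the control. Without dj the other 11 summed to 7675 TPM in the knockdown and 5661 TPM in the control, and without Mst98Ca to 7541 TPM in the knockdown and 6843 TPM in the control, so the direction of the sum turned with either gene.

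Transcripts of many cuticle-family genes were present in knockdown testes at levels above those of control testes. The 145 genes together had 1936 TPM in the knockdown and 253 TPM in the control, 7.65-fold higher. These sums were 0.194% of all knockdown tags and 0.0253% of all control tags. Tags were found in 78 of the genes in the knockdown and in 35 in the control, and 35 genes reached 10 TPM in the knockdown while 8 did in the control. The 4-fold rule called 52 genes higher and 3 lower (Cpr97Eb, Cpr92A and TwdlT), and 16 lay within it. Of the remaining genes, 8 had tags but less than 1 TPM in both groups and 66 had no tag in either. Over all genes past the filter, 21.4% were called higher and 5.44% lower. After rescaling, 42 of the 145 genes were higher and the same 3 lower, where 14.1% of all genes past the filter were higher and 9.36% lower. The median log2 difference of the 71 family genes past the filter was 3.06, or 5.89 as a bound with each 0 set at its floor and no pseudocount, against 0.68 and 0.74 over all genes. These medians do not compare like with like: 39 of the 71 family genes, but 1398 of the 13063 genes, had no control tags and passed the filter through the knockdown alone.

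Genes silent in the control pass the filter only if the knockdown raises them, so the calls were also set against all annotated genes. Of the 145 genes, 35.9% were higher and 2.07% lower. Among the 13844 other protein-coding genes, filter or not, 16.8% were higher and 4.2% lower. Of the 110 family genes with no control tag, 44 had a knockdown cluster (40.0%), near the 36% of other protein-coding genes without control tags. Of the 32 family genes that had control tags and passed the filter, 21 were higher, where 15.5% of other protein-coding genes of that kind were. Of those 21 genes, 10 had less than 1 TPM in the control and so also passed the filter through the knockdown. Among the 20 family genes with at least 1 TPM in the control, 11 were higher and 3 lower. Of the 9734 other protein-coding genes with at least 1 TPM in the control, 11.5% were higher and 5.97% lower. These sets differ in control level, as 8 of the 20 and 6623 of the 9734 reached 10 TPM there. Among those 8, TwdlV was higher, Cpr97Eb, Cpr92A and TwdlT were lower, and the rest lay within the rule. In RNA from whole testes, more RNA per cell and more cells of a type cannot be told apart.

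**Figure D1:**
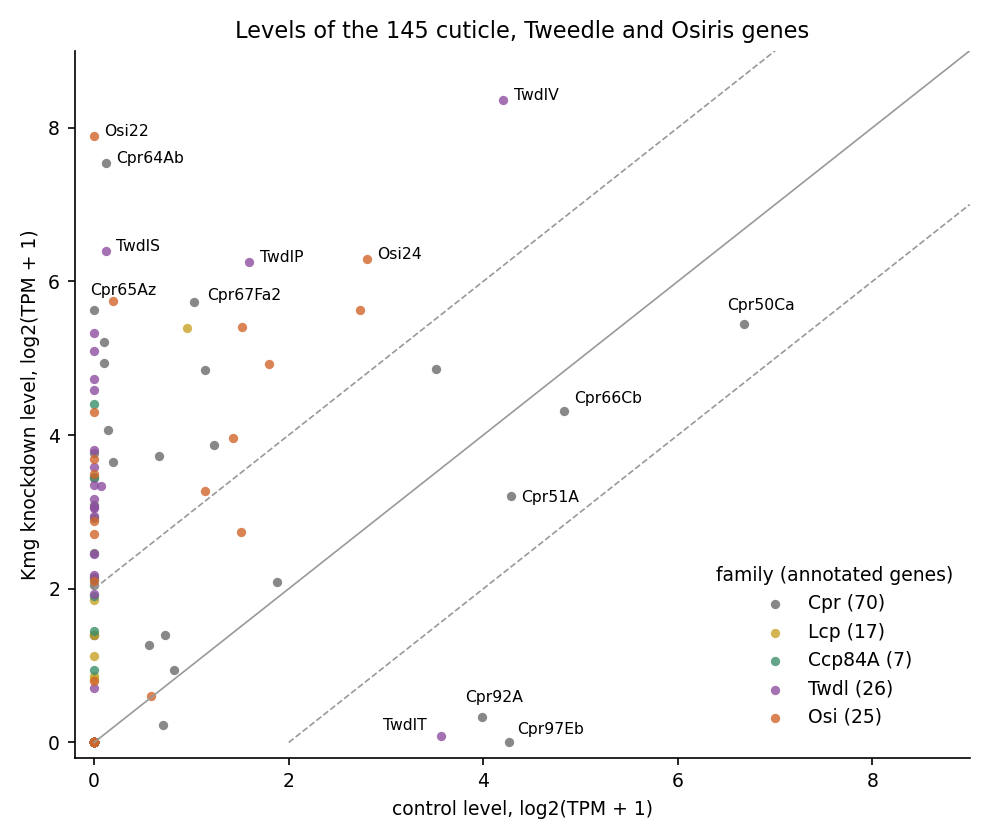
Each point is 1 of the 145 genes, with its Kmg knockdown level on the vertical axis and its control level on the horizontal axis, both as log2(TPM + 1) of the pooled libraries and coloured by family. Dashed lines mark the 4-fold rule; 52 genes lie above the upper line or on it, many at a control level of 0, and Cpr97Eb, Cpr92A and TwdlT lie below the lower line.

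The Tweedle family had the largest share of genes called higher, 17 of 26 (65.4%), with 1 lower and 1 within the rule. Its summed level was 688 TPM in the knockdown and 30.5 TPM in the control. Of its 21 genes without control tags, 15 had a knockdown cluster. TwdlV had the highest knockdown level of all 145 genes, 326 TPM from 11407 tags, against 17.5 TPM from 987 control tags, 18.7-fold higher (95% interval 17.5 to 19.95). TwdlS had 83.4 TPM in the knockdown and 0.0885 TPM in the control, the control value resting on 5 tags, so the ratio of 942 has a wide interval of 403 to 2905. TwdlP had 75.02 TPM in the knockdown and 2.02 TPM in the control, 37.2-fold higher. Beside these 3 genes, which had control tags, others were at 0 in the control. TwdlQ had 39.1 TPM in the knockdown and 0 in the control, at least 737-fold higher against a floor of 3 tags in the pooled control libraries. Against the same floor, TwdlM with 33.3 TPM was at least 627-fold higher and TwdlK with 25.4 TPM at least 479-fold higher. TwdlX had 9.06 TPM in the knockdown and 3 tags, 0.0531 TPM, in the control, a ratio of 171 with an interval of 57.9 to 832. The 14 Tweedle genes past the filter without control tags spanned 2.80 to 39.1 TPM in the knockdown. TwdlT went the other way, with 2 knockdown tags against 613 control tags, or 0.0572 TPM against 10.8 TPM. Its cluster sits at its annotated start, which also lies in the longer neuropeptide receptor gene RYa-R on the same strand.

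The Osiris family followed, with 14 of 25 genes higher (56.0%), none lower and Osi6 within the rule. The family summed to 571 TPM in the knockdown and 21.3 TPM in the control. Osi22 had 8265 knockdown tags, 236 TPM, and no control tag, at least 4452-fold higher, and no other gene of the 145 had a larger log2 difference (7.89). Osi24 had 77.1 TPM in the knockdown and 5.96 TPM in the control, 12.9-fold higher (95% interval 11.5 to 14.5). Osi17 had 52.4 TPM in the knockdown and 0.142 TPM from 8 tags in the control. Osi21, known as diehard4 and studied in photoreceptor cells, had 18.7 TPM in the knockdown and 0 in the control, at least 352-fold higher. Osi23, known as gore-tex and needed for the nanopores of olfactory hairs, had 26 knockdown tags and no control tag, under the filter. The 7 Osiris genes past the filter without control tags spanned 3.29 to 236 TPM in the knockdown.

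The Cpr family was more mixed. Of 70 genes, 18 were higher, 2 lower and 9 within the rule, and 39 had no tag in either group. Of its 50 genes without control tags, 11 had a knockdown cluster (22.0%). Cpr64Ab had 186 TPM in the knockdown from 6497 tags, against 0.0885 TPM from 5 control tags, a ratio of 2100 with an interval of 899 to 6469. Cpr67Fa2 had 52.0 TPM in the knockdown and 1.04 TPM in the control, but it has a near-identical copy, Cpr67Fa1, listed with no tags, so the split of reads between them is uncertain. Cpr65Az had 48.4 TPM in the knockdown and 0 in the control, at least 911-fold higher. Cpr97Ea had 36.1 TPM in the knockdown, and Cpr49Ac had 29.7 TPM, each against 4 control tags (0.0708 TPM). Cpr78Cc had 27.7 TPM in the knockdown and 1.20 TPM in the control, 23.0-fold higher. Cpr76Bd had 13.6 TPM in the knockdown and 1.34 TPM in the control, and Cpr65Ec had 12.3 TPM in the knockdown and 0.584 TPM in the control. Cpr62Bc, with 9.86 TPM, and Cpr47Ef, with 3.37 TPM in the knockdown, had no control tag and were at least 186-fold and at least 63.6-fold higher.

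The 6 highest control levels among the 145 genes included 5 Cpr genes, and none of these 5 was called higher. Cpr97Eb had 0 knockdown tags and 1029 control tags, 18.2 TPM, at least 79.6-fold lower against a floor of 8 tags, which is the number its consensus region held beyond the called clusters. Cpr92A had 0.257 TPM from 9 knockdown tags and 14.8 TPM from 837 control tags, 57.5-fold lower. Cpr51A had 8.26 TPM in the knockdown and 18.5 TPM in the control, and Cpr66Cb had 18.8 TPM in the knockdown and 27.4 TPM in the control, both within the rule. Cpr50Ca had 42.5 TPM in the knockdown and 101 TPM in the control, the highest control level of the 145. All its control tags lay in intronic clusters that also belong to a noncoding gene on the same strand, lncRNA:CR43810, which had 7.21 TPM in the knockdown and 101 TPM in the control. Without the clusters it shares with that gene, Cpr50Ca had 35.3 TPM in the knockdown and 0 in the control, and the 145 genes summed to 1929 TPM in the knockdown and 152 TPM in the control, 12.7-fold higher. That exclusion was chosen after seeing the data.

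The small Ccp84A family had no control tag in any of its 7 genes. In the knockdown 5 of the 7 had a cluster, 2 were higher and 2 lay within the rule. Ccp84Ad had 20.1 TPM in the knockdown, at least 162-fold higher than a control floor of 7 tags. Ccp84Ab had 9.98 TPM in the knockdown, at least 188-fold higher than the 3-tag floor. Among 17 Lcp genes, the larval cuticle proteins, Lcp2 was the 1 gene called higher. It had 41.1 TPM in the knockdown and 0.938 TPM in the control, 43.8-fold higher, and its close copy Lcp1 had 1.63 TPM in the knockdown and 0 in the control, so reads of these genes may be shared. Of the other Lcp genes, Lcp3 had 2.60 TPM and Lcp9 had 1.17 TPM in the knockdown, and 11 had no tag in either group.

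**Figure D2:**
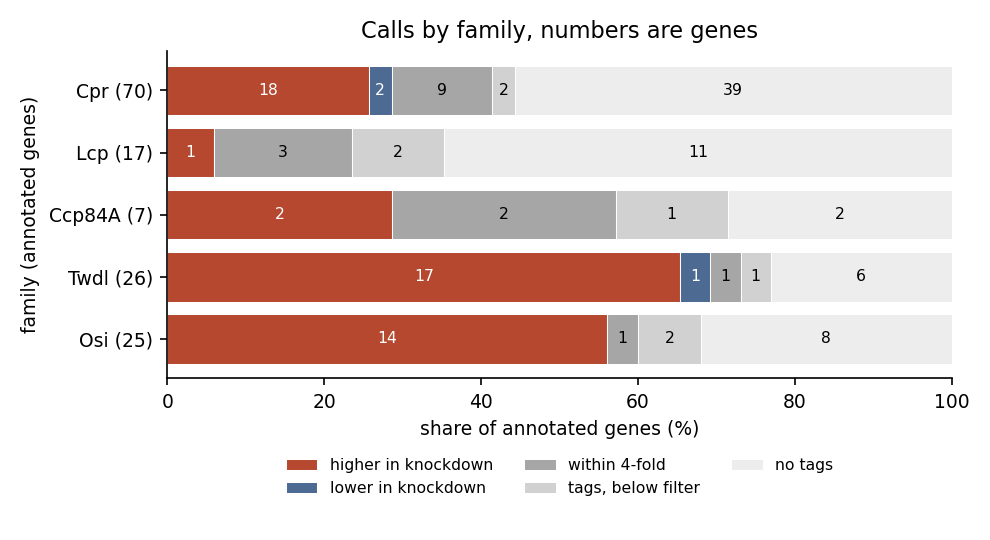
Bars show the share of annotated genes of each family by call under the 4-fold rule on the pooled libraries, and the numbers in the bars count genes. Higher calls took up 17 of 26 Twdl genes and 14 of 25 Osi genes, against 18 of 70 Cpr and 1 of 17 Lcp genes, while 39 Cpr and 11 Lcp genes had no tags.

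Of the 145 genes, 109 lie in 16 arrays of at least 3 members with gaps of at most 20 kb. Within arrays 42 genes were higher (38.5%) and 0 lower, with 1443 TPM in the knockdown and 47.6 TPM in the control. Among the 36 genes outside arrays, 10 were higher (27.8%) and 3 lower (8.33%), with 493 TPM in the knockdown and 206 TPM in the control. Of that control sum, 101 TPM were the Cpr50Ca clusters shared with lncRNA:CR43810. Among other annotated protein-coding genes 16.8% were higher and 4.2% lower. By chromosome arm, 31 of the 56 genes on 3R were higher, 11 of 46 on 3L, 5 of 28 on 2R, 3 of 7 on 2L and 2 of 8 on X. The arms differ in family, as the Osiris array and the arrays from TwdlM to TwdlD and from TwdlU to TwdlV lie on 3R. Shares of all genes per arm are not given, so an effect of the arm was not tested.

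The Osiris array spans 3R:6198811-6341424 (1-based, BDGP6), from Osi24 to Osi20, and holds 21 members, 19 of them on the plus strand. It had 315 TPM in the knockdown and 21.3 TPM in the control, and 12 members were called higher. Members without tags lay between members with tags. Osi7 and Osi8, which had no tags in either group, lie between Osi6 and Osi9. Osi6 had 5.69 TPM in the knockdown and 1.84 TPM in the control, and Osi9 had 48.4 TPM in the knockdown and 5.63 TPM in the control. Osi13, Osi15, Osi18 and Osi19 had no tags in either group, while Osi12 had 29.3 TPM in the knockdown and 2.48 TPM in the control, and Osi16 had 11.9 TPM in the knockdown and 0 in the control. On the minus strand Osi11 had 10.3 TPM in the knockdown and 0 in the control, and Osi4 had no tags. Of 10 other genes inside the array, 4 passed the filter and 3 were higher (30% of the 10, against 11.5% of all annotated genes). The 3 include an annotated copy of the BS transposon, with 42.0 TPM in the knockdown and 0 in the control. Its tags are those of Osi24 clusters with 1446 and 22 knockdown tags. They were thus counted both for a member and for another gene of the array.

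The largest Tweedle array, 3R:26619118-26641054 from TwdlM to TwdlD, had 279 TPM in the knockdown and 2.11 TPM in the control over 12 members. It had 9 members called higher, 4 of its 7 plus-strand and all 5 of its minus-strand genes. Of the other 3, TwdlH had 2.80 TPM in the knockdown and 0 in the control, TwdlD had 0.629 TPM in the knockdown and 0 in the control, and TwdlR had no tags. The smaller array from TwdlU to TwdlV, at 3R:4243606-4255833, had all 4 members higher, with 349 TPM in the knockdown and 17.5 TPM in the control. Between these 4 genes lies CG14644, which had 107 TPM in the knockdown and 143 TPM in the control, within the rule. On X, the array from TwdlX to Twdlalpha had 2 of 4 members higher.

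The array from Lcp65Ag3 to Cpr65Az, 3L:6130386-6161589, stood at the other end. Of its 18 members, 15 had no tag in either group, Lcp65Ag2 and Lcp65Af had 29 and 27 knockdown tags and no control tag, and the 1 member called higher was Cpr65Az at its edge. Several Lcp65A genes are near-identical copies, so reads that fit several of them may have been dropped or split. The Ccp84A array, 3R:6686728-6704903, had 2 of 7 members higher. Among the Cpr arrays, Cpr64Aa to Cpr64Ad had 186 TPM in the knockdown from Cpr64Ab alone, with the other 3 members without tags. The Cpr72Ea to Cpr72Ec array had no tags in either group, and the other 7 Cpr arrays and the Lcp1 to Lcp4 array each had 1 or 2 members higher. Over all arrays, 38 genes that are not members lie within the arrays, and 9 of them were higher (23.7%) and 1 lower (2.63%). The 9 include the BS transposon copy, whose tags were also counted for Osi24. Over all annotated genes 11.5% were higher and 2.93% lower, and over other protein-coding genes 16.8% and 4.2%. The lower gene, TpnC47D, encodes a troponin C of muscle and had 17.1 TPM in the knockdown and 106 TPM in the control.

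**Figure D3:**
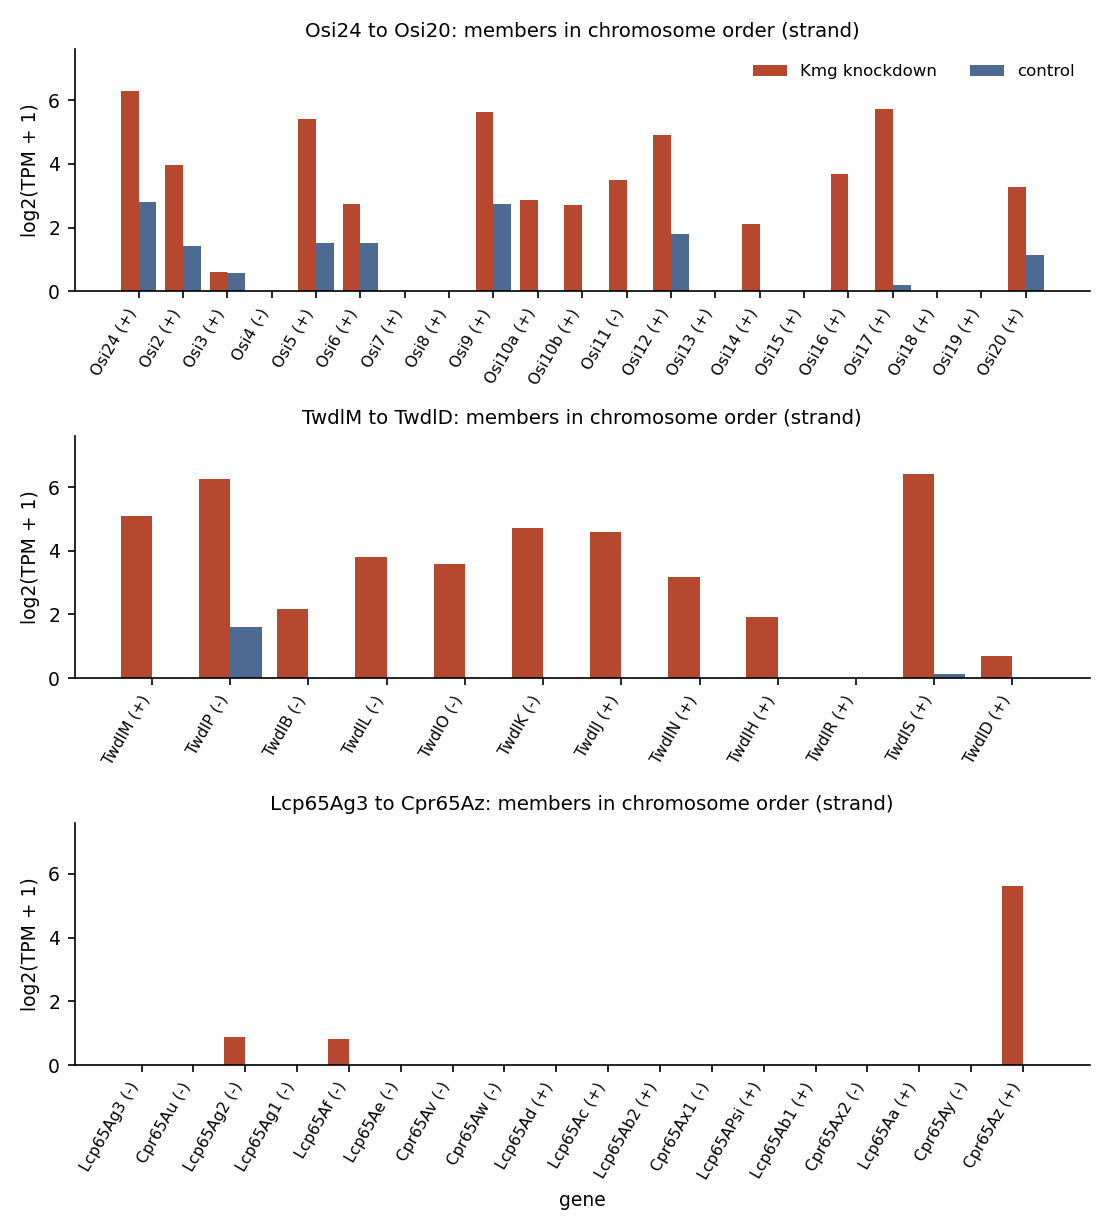
Bars give the level of each array member as log2(TPM + 1) of the pooled libraries, Kmg knockdown left of control, in chromosome order with the strand in brackets. In the Osiris array (top) silent genes sit between genes with tags, in the TwdlM to TwdlD array (middle) all members but TwdlR have knockdown tags, and in the Lcp65Ag3 to Cpr65Az array (bottom) Cpr65Az at the edge stands out at 48.4 TPM in the knockdown.

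Knockdown starts were spread over the gene bodies. Of the tags in the 145 genes, 44.4% in the knockdown and 48.8% in the control lay no more than 100 bp from an annotated start site (TSS). Coding exons held 38.3% in the knockdown (exact 95% interval 37.9 to 38.7) and 0.853% in the control (0.709 to 1.02). Introns held 14.8% in the knockdown and 49.6% in the control, the control share being mostly the lncRNA:CR43810 clusters inside Cpr50Ca. In other protein-coding genes, 12.5% of knockdown tags and 1.77% of control tags began in coding exons. Osi22 alone supplied 8240 of the coding-exon tags, and without it the coding-exon share in the knockdown was 29.7%. These genes are short, with a median length of 1112 bp against 2180 bp for other protein-coding genes. With a window of 500 bp around the TSS in place of 100 bp, the share of tags off annotated TSSs was 24.4% in the knockdown and 45.6% in the control, where at 100 bp it was 55.6% in the knockdown and 51.2% in the control.

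Of the 69 coding-exon clusters of the knockdown, 61 (88.4%) had no overlapping control cluster, and in other protein-coding genes 58.6% had none. At annotated TSSs, 36 of 55 knockdown clusters (65.5%) had no control cluster, and in other protein-coding genes 6.59% had none. Calls made from TSS clusters alone gave 25 genes higher and 4 lower, with 860 TPM in the knockdown and 124 TPM in the control. Over all genes past the filter at TSSs, 7.84% were higher and 9.5% lower, and among other annotated protein-coding genes 4.49% were higher and 6.56% lower, against 17.2% and 2.76% of the 145. Calls made from the remaining clusters alone gave 40 genes higher and 0 lower, with 1076 TPM in the knockdown and 129 TPM in the control. There the background was 51.3% higher and 1.79% lower past the filter, and 32.8% higher and 1.1% lower over other annotated protein-coding genes, where 27.6% of the 145 were higher. As shares of annotated genes, higher calls among the 145 were thus more frequent than the background at annotated starts and less frequent inside genes. Of the family genes past the filter, 25 of 41 were higher at TSSs and 40 of 52 off TSSs. Over all genes past the filter the shares were 7.84% and 51.3%, but these do not compare like with like. With no control tags, 24 of the 41 and 34 of the 52 passed the filter through the knockdown alone. Over all genes this held for 613 of 11003 at TSSs and 2869 of 9467 off them. Per gene length, clusters off TSSs were denser in the 145 genes than in other protein-coding genes in the knockdown, and sparser in the control. Clusters of at least 1 TPM off annotated TSSs numbered 34.4 per 100 kb of the 145 genes in the knockdown and 3.30 in the control, against 22.3 in the knockdown and 6.33 in the control for other protein-coding genes.

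The families differed in where their knockdown tags began. In Tweedle genes 63.7% of knockdown tags lay at annotated TSSs and 34.3% in coding exons, but without TwdlV these shares were 35.6% and 60.6%. In Osiris genes 9.60% lay at annotated TSSs and 62.6% in coding exons, and 16.4% and 36.2% without Osi22. All 17 coding-exon clusters of Osiris genes lacked a control cluster. Of Cpr tags 50.03% lay at TSSs, 24.9% in coding exons and 24.6% in introns, but without Cpr64Ab these shares were 33.7%, 35.9% and 29.6%. Of knockdown tags, 95.3% in Lcp genes and 67.6% in Ccp84A genes lay at annotated TSSs, and Ccp84A genes had no coding-exon cluster. Single genes led here too, with Lcp2 at 1399 of the 1603 Lcp tags at TSSs and Ccp84Ad at 578 of the 839 Ccp84A tags. Ccp84Ab had 168 tags at its TSS and 181 off it, and Ccp84Aa had 0 and 96. Ccp84Ac and Ccp84Ae had 61 and 32 tags, all at TSSs.

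**Figure D4:**
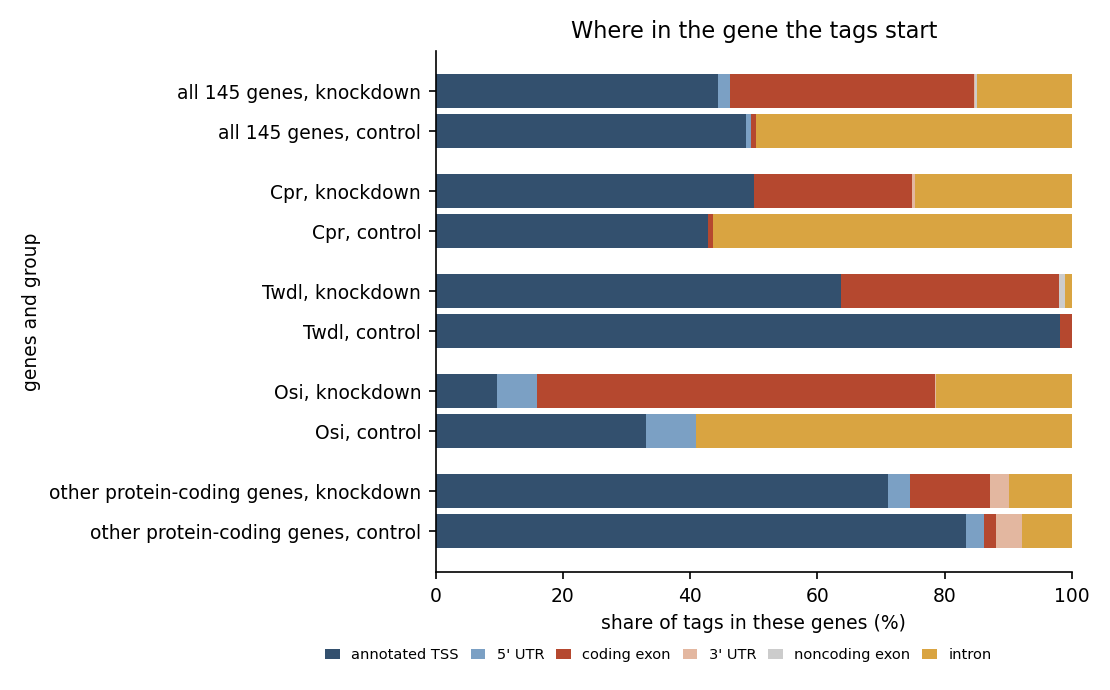
Bars show the share of tags by the position of the cluster's dominant start, in the knockdown (upper bar of each pair) and the control (lower bar), for all 145 genes, 3 of the families and the other protein-coding genes. Coding-exon tags make up 38.3% of the members' knockdown tags and 0.853% of their control tags, against 12.5% and 1.77% in other protein-coding genes.

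TwdlV and Cpr64Ab were higher at their own annotated starts. The TwdlV TSS cluster had 10833 knockdown tags and 965 control tags, with its dominant position 30 bp into the gene in both groups and an interquantile width of 40 bp in both. The Cpr64Ab TSS cluster had 5580 knockdown tags and 5 control tags, and a single intronic position had 879 more in the knockdown. Most Lcp2 tags also counted as lying at an annotated TSS, in a knockdown cluster with a width of 159 bp. The dominant position of that cluster was 206 bp from the gene's 5' end, near an annotated start inside the gene. The 2 TSS clusters of TwdlP had 1736 and 540 tags in the knockdown, against 95 and 19 in the control.

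Other genes had knockdown starts downstream of an annotated start with few or no tags. The main Osi22 cluster had 8240 knockdown tags and no control tag, was centred 305 bp from the gene's 5' end in coding sequence, and covered an interquantile width of 99 bp. TwdlS had its tags in 1 coding-exon cluster 493 bp in, with 2916 knockdown tags and 5 control tags at the same dominant position. TwdlQ had 1343 knockdown tags and no control tag in a coding-exon cluster 592 bp in. Osi24 had tags at its annotated start and inside the gene, but was higher in the knockdown only inside the gene. Its annotated TSS had 90 knockdown tags and 302 control tags (2.57 TPM in the knockdown and 5.34 TPM in the control), while a coding-exon cluster 7462 bp in had 1446 knockdown tags and no control tag. That cluster overlaps an annotated copy of the BS transposon, and mapping in repeats is less certain. Counted at its TSS alone, Osi24 had a log2 difference of -0.83. Across the members, 49 coding-exon clusters of at least 1 TPM had no control cluster, in 33 genes, at a median of 592 bp from the 5' end.

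In several genes the groups used different starts. Cpr66Cb had 1550 control tags at its annotated TSS within an interquantile width of 4 bp and no knockdown tag there, at least 320-fold lower. Its 657 knockdown tags all lay in an intron 711 bp in, where the control had none, at least 354-fold higher. The levels of the whole gene, 18.8 TPM in the knockdown and 27.4 TPM in the control, do not show this exchange. Osi6 had 196 knockdown tags and 0 control tags at its annotated TSS, and 3 knockdown tags and 104 control tags at an intronic start. Cpr73D had 49 knockdown tags inside the gene and 27 control tags at the TSS, with none shared. Cpr97Eb lost its TSS cluster of 1029 control tags, 4 bp wide, and its neighbour Cpr97Ea on the same strand had 809 knockdown tags and 4 control tags in its strongest coding-exon cluster. The TSS clusters of Cpr66Cb, Cpr97Eb and Cpr73D were the only 3 of the 48 control clusters without a knockdown partner, all with a width of 4 bp.

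**Figure D5:**
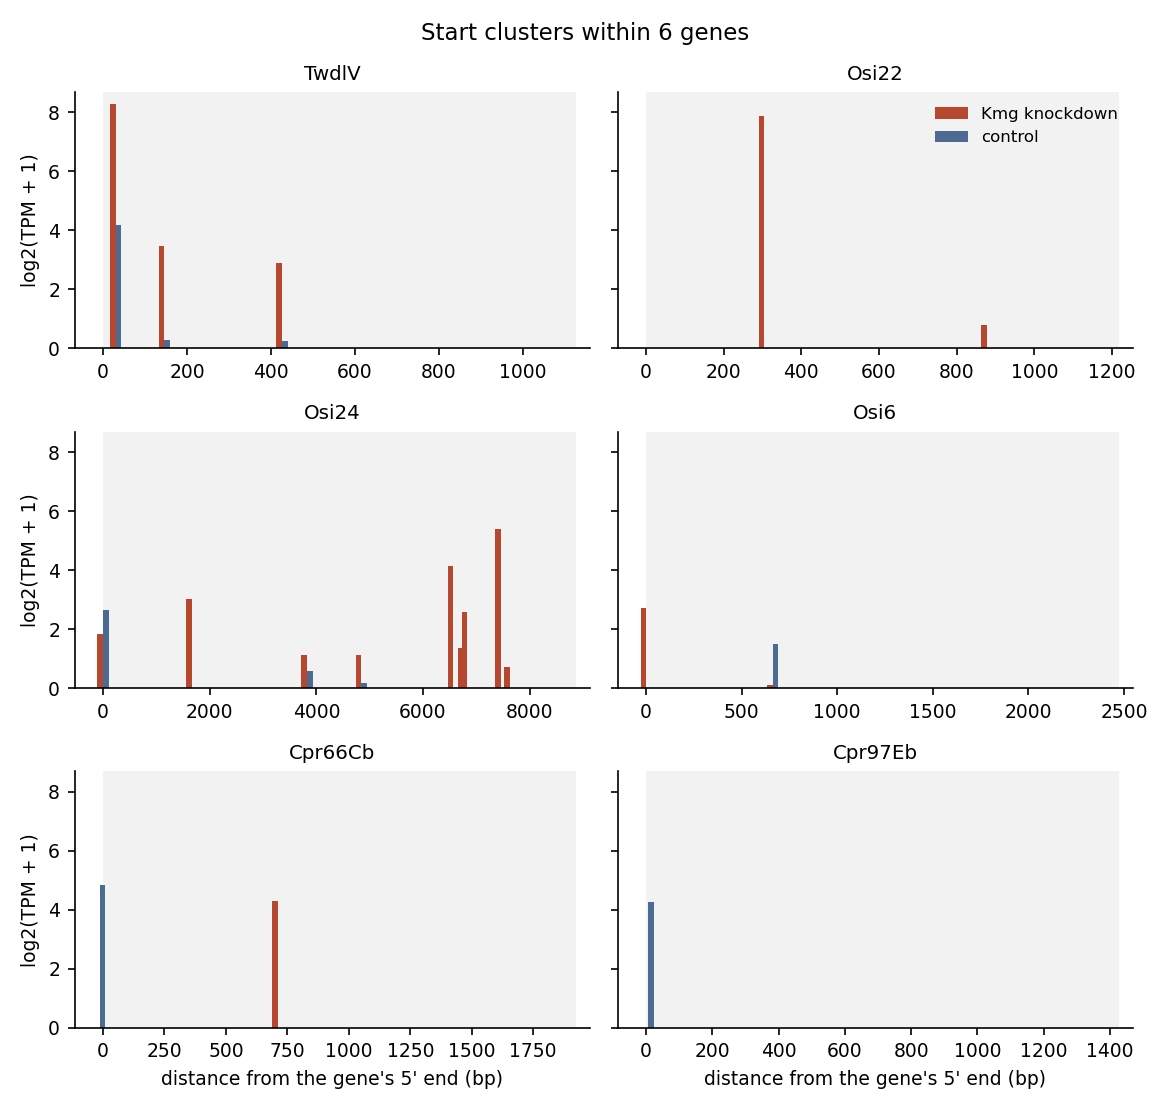
Each pair of bars is a start cluster, Kmg knockdown left of control, at its distance in bp from the gene's 5' end, with its level as log2(TPM + 1) of the pooled libraries; grey marks the gene body. TwdlV is higher at its TSS, Osi22 and Osi24 have knockdown starts inside the gene, Osi6 and Cpr66Cb have the groups' main starts at different places, and Cpr97Eb has control tags only.

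As a set, knockdown clusters were also wider. Among clusters of at least 10 TPM, the 36 of the knockdown had a median interquantile width of 65.5 bp and the 8 of the control had 5 bp. Those within 10 bp numbered 3 in the knockdown and 5 in the control. These sets are not the same clusters. An overlapping cluster of any level in the other group was found for 17 of the 36 and 6 of the 8. Those had medians of 67 bp in the knockdown and 23 bp in the control. Whether single starts widened was not tested. In other protein-coding genes the medians at that level were 61 bp in the knockdown and 48 bp in the control. The density of clusters of at least 1 TPM was 50.5 per 100 kb of these genes in the knockdown and 7.32 in the control. In other protein-coding genes it was 33.5 in the knockdown and 17.3 in the control.

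Antisense clusters lay over 48 of the 145 genes in the knockdown (33.1%) and over 19 in the control (13.1%). Among other protein-coding genes, 44.0% had one in the knockdown and 24.7% in the control. Per gene length the order in both groups was the other way. There were 36.2 antisense clusters per 100 kb of the 145 genes in the knockdown and 13.2 in the control, against 15.0 in the knockdown and 6.55 in the control for the longer other genes. Part of this signal belongs to genes on the other strand, such as S-Lap7 within Cpr50Ca and Obp73a within Cpr73D. Leaving out clusters in any annotated gene of their own strand, 76 antisense clusters with 539 TPM remained in the knockdown and 21 with 17.4 TPM in the control. Over Cpr65Az the strongest of these had 114 TPM in the knockdown and 0.177 TPM in the control. The antisense cluster over Cpr97Ea had 56.6 TPM in the knockdown and 0.124 TPM in the control, and that over TwdlJ had 48.3 TPM in the knockdown and none in the control. In 12 genes the knockdown had an antisense cluster and no sense cluster.

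Other genes of cuticle building differed in their calls. Each list was read against the 16.8% of other annotated protein-coding genes called higher and the 4.2% called lower. Among 19 genes of chitin synthesis, assembly and turnover, 7 were higher (36.8%) and 0 lower. The chitinase gene Cht10 had 143 TPM in the knockdown and 0 in the control, and knk, needed for chitin organisation, had 20.6 TPM in the knockdown and 0.425 TPM in the control. The chitin synthase gene kkv had 164 TPM in the knockdown and 265 TPM in the control, within the rule. Of 9 matched tanning and pigment enzymes, 3 were higher (33.3%), among them y (yellow) with 54.2 TPM in the knockdown and 0.230 TPM in the control. In the same list 2 were lower. The tyrosine hydroxylase gene ple had 0 TPM in the knockdown and 14.8 TPM in the control, and the laccase gene stw (straw) had 0.801 TPM in the knockdown and 7.75 TPM in the control. Of 11 cuticle proteins named outside the family rule, resilin and Pcp were higher (18.2%, near the background), Vajk4 was lower and 7 had no tags. Resilin, the elastic cuticle protein, had 19.4 TPM in the knockdown and 0 in the control.

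The zona pellucida domain genes of the apical matrix had 6 of 9 higher (66.7%) and 0 lower. Dusky-like (dyl) had 169 TPM in the knockdown and 5.40 TPM in the control, and neo had 50.5 TPM in the knockdown and 0.212 TPM in the control. Of 11 regulators of epidermal cuticle and moulting, EcR and Hr4 were higher (18.2%, near the background) and 0 were lower. The ecdysone receptor gene EcR had 94.8 TPM in the knockdown and 1.11 TPM in the control. Grainy head (grh), a regulator of epidermal barrier genes, had 17.9 TPM in the knockdown and 3.98 TPM in the control, within the rule. Ovo, a regulator of epidermal hairs, had no tags under its symbol in either group.

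Markers of other tissues that carry cuticle or adjoin the testis were read in the same libraries. Among other annotated protein-coding genes, filter or not, 16.8% were higher and 4.2% lower. The lists hold 5 to 7 genes each, so a single call is a large share of a list. Of 7 genes listed for trachea, 2 (bnl and uif) were higher, and the tracheal receptor gene btl was at 0 in both groups. The list summed to 117 TPM in the knockdown and 31.3 TPM in the control. Without bnl, which encodes a signal to tracheal cells, it summed to 88.8 TPM in the knockdown and 26.1 TPM in the control. The 5 ejaculatory bulb and duct markers summed to 289 TPM in the knockdown and 278 TPM in the control, with 1 lower and Ebp and EbpII at 0 in both. Without EbpIII they summed to 15.4 TPM in the knockdown and 55.4 TPM in the control. The 7 accessory gland markers summed to 240 TPM in the knockdown and 449 TPM in the control, with 4 lower. Of 6 muscle markers 1 was lower, with sums of 301 TPM in the knockdown and 1201 TPM in the control. Of 6 somatic cyst cell markers 1 was higher, with sums of 173 TPM in the knockdown and 82.0 TPM in the control. The higher one was so (sine oculis), and without it the other 5 summed to 52.7 TPM in the knockdown and 62.5 TPM in the control. The 5 fat body markers summed to 174 TPM in the knockdown and 311 TPM in the control with 1 lower, and the 5 hemocyte markers to 116 TPM in the knockdown and 134 TPM in the control with 1 higher, 2 lower and NimC1 at 0 in both. Without Col4a1 the hemocyte markers summed to 110 TPM in the knockdown and 98.5 TPM in the control, and without vkg to 78.4 TPM in the knockdown and 65.6 TPM in the control. Leaving out 1 gene thus turned the direction of the bulb and duct, cyst cell and hemocyte sums. The part of these tissues in the levels of the 145 genes was not tested.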

How the data were processed

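Tag clusters of the knockdown and the control, and a consensus list over both, were deposited as 3 tables. Per the file headers their level column is TPM, but the deposited values were whole numbers, treated here as each group's pooled tag counts over 2 libraries. The number of start positions and the interquantile width in bp per cluster are other measures deposited by the authors. Per the submitters' processing notes, which assign no roles, STAR 2.7.11b, Trim Galore 0.6.6 and bedtools were used, with builds dm6 and BDGP6. The sources used here give no cluster caller.

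Counts were scaled to 1000000 tags per group. Clusters were assigned on the same strand to each gene of Ensembl release 115 (BDGP6, the dm6 coordinates) whose body or TSS window of 100 bp held the dominant position, and could serve overlapping genes. The change was log2((knockdown + 1) / (control + 1)), which understates changes of low genes, with a filter of at least 1 TPM in the knockdown or the control, and calls at 2 and -2. Ratios have exact binomial 95% intervals. A count of 0 has a floor of 3 tags over a group's pooled libraries (0.0858 TPM in the knockdown, 0.0531 TPM in the control), or the tags its consensus region held beyond the called clusters where these were more. Intervals and floors cover counting error only. Single positions under 50 tags are not listed in the tables.

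The 28 genes named by rule were, past the filter, the 12 with the largest and the 6 with the smallest log2 difference, the 6 highest in each group, and the highest knockdown level of each family and array. Other genes named were chosen after their values were seen. The members and lists were chosen with earlier results of these data known. No values per library were used, so no replicate spread, test or p-value exists here. The labels do not say whether libraries came from separate crosses. The calling rule was tested on simulated counts, with changes put only into genes that had tags in the control. That simulation did not cover changes of genes without control tags, or spread between libraries. Python 3.11.15, pandas 2.3.3, numpy 2.4.6, scipy 1.17.1 and matplotlib 3.10.9 were used.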

Additional observations from a re-analysis of the deposited data

How the results depend on the processing

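The 52 higher and 3 lower calls became 33 and 3 with a pseudocount of 3 TPM, 25 and 4 with clusters at annotated TSSs alone, and 42 and 3 after rescaling, where 14.1% of all genes were higher and 9.36% lower. The other alternatives gave 45 to 59 higher and 2 to 4 lower. The median log2 difference of members past the filter, 3.06, was 3.82 and 1.90 with pseudocounts of 0.5 and 3 TPM, 2.90 without a filter, 3.46 with a filter of 5 TPM, 2.48 rescaled, 2.57 at TSSs alone, 2.92 with a window of 500 bp, 3.07 with clusters in 1 gene, and 2.74 from the strongest cluster of each gene. The share of member tags off annotated TSSs, 55.6% in the knockdown and 51.2% in the control, was 24.4% and 45.6% with a window of 500 bp, and 54.4% and 20.1% with clusters in 1 gene. Without the clusters shared with lncRNA:CR43810, an alternative chosen after seeing the data, the control share was 18.6%. Counts from TSSs alone or from clusters in 1 gene use fewer clusters by construction; the cause of the other shifts was not tested. Over the 28 genes named by rule and 9 alternatives, 228 of 241 values kept their direction and call, 9 lost the call, 2 gained one and 2 reversed: Osi24 had -0.83 at its TSS alone, and Cpr50Ca had 5.18 with clusters in 1 gene. A further 11 gave no value, as no cluster of the gene was left. No paired analysis was possible because each group is 1 pooled value, and leaving out a replicate was not run for the same reason. Single positions under 50 tags are not listed in the tables, which limits low levels.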
